A study of Mus musculus with 49 samples.

Results

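Among the 23 sickle (HbSS-BERK) ganglia, those with the most RNA of Alas2 were set against those with the least. Alas2 makes the erythroid form of the first enzyme of heme synthesis and marks red cell precursors. CPM is the reads of a gene divided by all reads of the library in named genes, times 1000000. The members were chosen by measured values: the libraries were ranked by the CPM of Alas2, the 8 highest were called erythroid-rich, the 8 lowest erythroid-poor, and the 7 between them were left out of the sets. The sets therefore hold 16 of the 23 sickle libraries and of the 48 libraries analysed. The ranking used measured values of these same libraries, so the rich set is described against the poor set without a test, and Alas2 itself is no result.

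RNA of the dorsal root ganglia, which house the cell bodies of sensory neurons, was sequenced from whole tissue of separate mice. HbSS-BERK mice lack murine α and β globins and carry human transgenes for α and sickle βS globin. HbAA-BERK control mice lack the same murine globins, carry human α and normal βA globin and share the mixed background. The sickle groups were 6 mice of 5 months with hypoxia/reoxygenation (H/R), 5 of that age in normoxia, 6 of 2 months with H/R and 6 of that age in normoxia. The control groups were 6, 6, 7 and 6 mice in the same order, 25 in all. In H/R, mice breathed 8% O2 and 92% N2 for 3 h and then room air for 1 h, which was repeated after a week, and ganglia were taken a day later. The libraries held 12.1 to 24.8 M reads in named genes, with 15.8 to 22.5 M (median 17.6 M) in the rich set and 15.1 to 20.1 M (median 16.7 M) in the poor set.

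Red cells are made from progenitors that divide several times under erythropoietin, switch on GATA1 and KLF1, and fill with heme and globin before they lose the nucleus and leave the marrow as reticulocytes. Genes of the late steps (membrane proteins, heme synthesis) and of cell division are therefore found together in nucleated red cell precursors. Reticulocytes still carry RNA, and sickle mice, which are anemic, make many of them.

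The cut fell in a continuous range. The highest Alas2 values were 573 CPM in the library of replicate 1 at 5 months after H/R and 570 CPM in that of replicate 2 at 2 months after H/R, and the other 6 rich libraries had 276 to 295 CPM. The poor libraries had 89.7 to 191 CPM. The last library inside the rich set had 276 CPM and the first outside it 255, and the last inside the poor set had 191 CPM and the first outside it 197. Every sickle library but the lowest was above the 25 control libraries, which had 10.2 to 122 CPM.

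The sets crossed the labelled groups. Of the rich libraries 3 were from mice of 5 months with H/R, 1 of that age in normoxia, 2 of 2 months with H/R and 2 of that age in normoxia, against 1, 2, 2 and 3 of the poor libraries. Mice after H/R made up 5 of the rich and 3 of the poor libraries (Fisher's exact test, two-sided, p = 0.619), and mice of 5 months 4 and 3 (exact p = 1). Replicate numbers 1 to 3 made up 5 of each set (exact p = 1), while 6 of the 7 libraries left out had numbers 4 to 6. Adjusted over these 3 tests every p was 1, and with 8 libraries a side only a large imbalance could be detected.

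Slc4a1, Klf1 and Mki67, markers that the ranking did not read, followed Alas2. Slc4a1 (chr11:102348820-102365281, mm10) encodes band 3, the anion exchanger of the red cell membrane. It had 669, 734, 217, 168, 150, 383, 269 and 336 CPM in the rich libraries, in the order of falling Alas2, against 179, 99.99, 130, 63.9, 117, 125, 138 and 61.2 CPM in the poor libraries. The 2 libraries highest in Alas2 were also highest in Slc4a1, and the sets overlapped because 2 rich libraries were below the highest poor one. The fitted log2 fold change was 1.66 (SE 0.33, n = 8 and 8), and 1.14 without those 2 libraries.

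Klf1 (chr8:84901982-84905291, mm10) encodes a zinc finger factor that switches on adult red cell genes. Its lowest, median and highest values were 8.78, 14.6 and 40.9 CPM in the rich libraries, against 3.73, 6.66 and 9.73 CPM in the poor libraries. The library of replicate 1 at 5 months after H/R was highest, and 1 rich library fell within the range of the poor set. Its log2 fold change was 1.46 (SE 0.29), and 1.01 without the 2 libraries highest in Alas2.

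Mki67 (chr7:135689784-135716450, mm10) encodes Ki-67, a nuclear protein of dividing cells. It had 57.6, 119 and 283 CPM (lowest, median and highest) in the rich libraries, against 20.6, 44.5 and 66.7 CPM in the poor libraries, a log2 fold change of 1.66 (SE 0.34), or 1.10 without the same 2 libraries. Again 1 rich library lay below the highest poor library. Per length, in the FPKM that the authors deposited, the medians of the rich and poor sets were 70.0 and 28.0 for Slc4a1, 10.46 and 4.90 for Klf1 and 11.8 and 4.38 for Mki67. Band 3 thus had the highest level of the markers on that scale in both sets.

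**Figure D1:**
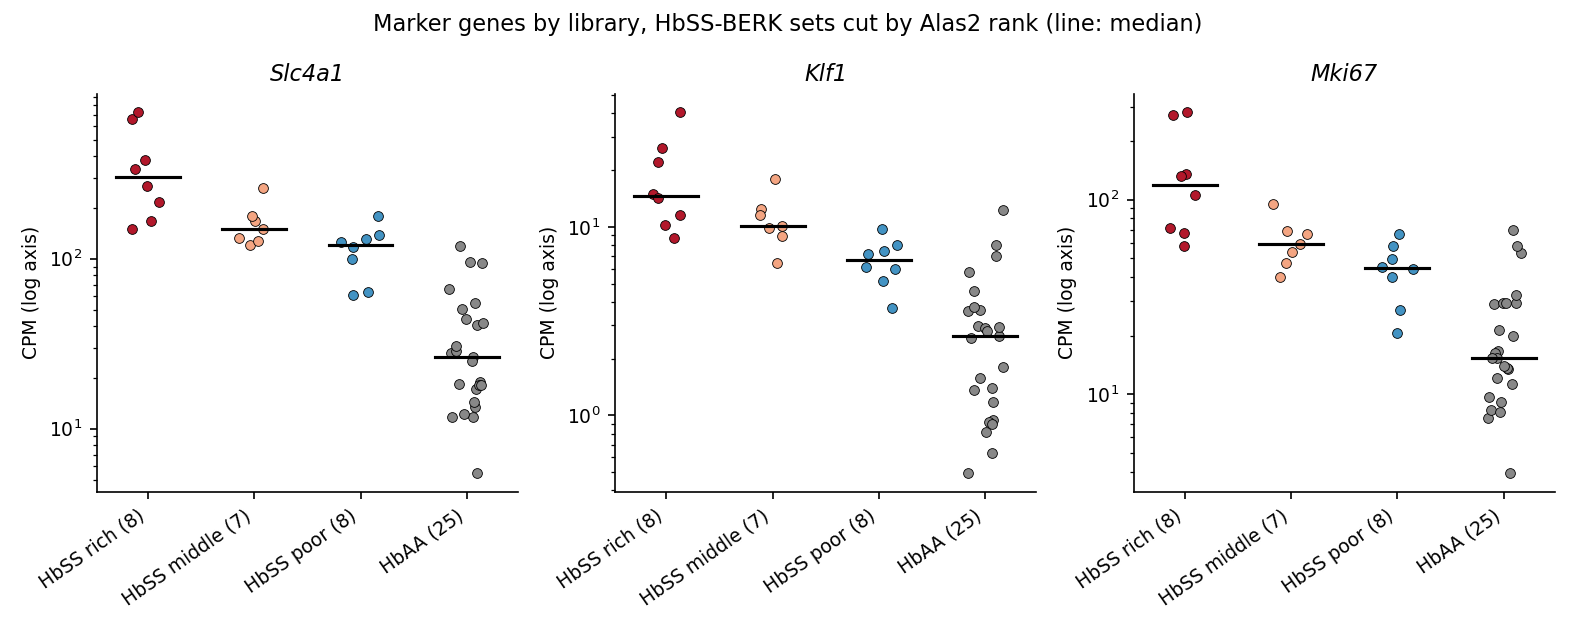
Levels of Slc4a1, Klf1 and Mki67 in CPM (log axes) in each library of the erythroid-rich (8), middle (7) and erythroid-poor (8) HbSS-BERK sets and in 25 HbAA-BERK libraries, with a line at each median. The rich libraries reach 734 CPM of Slc4a1, 40.9 CPM of Klf1 and 283 CPM of Mki67, and the lowest rich libraries lie within the range of the poor ones.

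The contrast was larger among some replicate numbers than among others, which was not tested. Among libraries numbered 1 to 3 (5 rich and 5 poor) Slc4a1, Klf1 and Mki67 did not overlap between the sets, with differences in mean log2 CPM of 2.10, 1.68 and 1.96. Among libraries numbered 4 to 6 (3 rich and 3 poor) all 3 genes overlapped and the differences were 0.60, 0.76 and 0.79. The 2 libraries highest in Alas2 both had numbers 1 to 3. Car1, the abundant carbonic anhydrase of young red cells, did not overlap in either (2.05 and 1.19).

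Of 15147 genes with enough reads, 34 were higher in every rich library than in every poor library (0.224% of the genes), and 23 of these were past 2-fold (0.152%). Irrespective of overlap, 206 genes were past 2-fold higher in the rich set (1.36%) and 4 past 2-fold lower (0.0264%). No gene was lower in every rich library. The count of 23 was 12 without the 2 libraries highest in Alas2, 64 without replicate 5 of the 2-month H/R group and 52 without replicate 6 of the 5-month normoxia group. The largest fold belonged to Car1 (chr3:14766214-14808365, mm10), with a log2 fold change of 1.95 (SE 0.35, 1.31 without the 2 libraries highest in Alas2). It had 11.01 to 65.6 CPM in the rich libraries, against 3.84 to 8.21 CPM in the poor libraries. Lincred1, a long non-coding RNA gene, had 1.79 to 12.8 CPM in the rich libraries, against 0.501 to 1.495 CPM in the poor libraries.

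Next by fold came Hemgn, a nuclear factor of hematopoietic cells, and Apol11b, a member of the apolipoprotein L family. Hemgn had 20.2 to 112 CPM in the rich libraries, against 7.18 to 19.3 CPM in the poor libraries (log2 fold change 1.67, SE 0.36). Apol11b had 15.3 to 62.9 CPM in the rich libraries, against 5.12 to 15.2 CPM in the poor libraries (1.63, SE 0.31), so that the sets nearly touched. The rest of the leading 12 were mainly genes of cell division: Dlgap5 (1.62), Ccnb2 (1.58), Ube2c (1.49), Aurkb (1.46), Mybl2 (1.42) and Ccnb1 (1.37) by log2 fold change, with Pdzk1ip1 (1.47) and Slc25a37 (1.36). Slc25a37 encodes mitoferrin, which carries iron into mitochondria for heme, and had 89.5 to 305 CPM in the rich libraries, against 37.0 to 84.8 CPM in the poor libraries.

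The 6 erythroid lists held 58 genes, of which 56 had enough reads. All 56 had a log2 fold change above 0, as did 43.1% of all genes. Past 2-fold higher were 25 of the 56 (1.36% of all genes), and 5 did not overlap (0.224% of all genes). Their median log2 fold change was 0.86, against -0.01 over all genes. These lists were chosen with results of these libraries known and hold genes that go with Alas2 by definition, so the counts describe the contrast that the ranking set up.

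Membrane and transcription genes had larger differences than heme and iron genes. The 16 membrane and cytoskeleton genes had a median log2 fold change of 1.40, but the most abundant of them apart from Slc4a1 hardly differed: Ank1, which anchors band 3 to spectrin, had 353 to 621 CPM in the rich libraries, against 375 to 562 CPM in the poor libraries. Ank1, Add2 and Dmtn were also at 264 CPM or more in each control library, at a level that the sets shared. The 8 transcription factor genes had a median of 1.33, from 0.74 to 1.502. E2f2, a cell cycle factor active in red cell precursors, had the highest level of them, with 31.2 to 112 CPM in the rich libraries, against 14.9 to 34.8 CPM in the poor libraries (log2 fold change 1.27, SE 0.26).

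The 11 heme synthesis genes had a median log2 fold change of 0.58. Fech, which places iron in the ring at the last step, had 114 to 256 CPM in the rich libraries, against 94.3 to 116 CPM in the poor libraries (log2 fold change 0.67, SE 0.16). Most other enzymes of the pathway are used by all cells, and Urod had 0.28 (SE 0.09). The 4 iron uptake genes had a median of 0.27, and Tfrc, the transferrin receptor, had 124 to 298 CPM in the rich libraries, against 115 to 185 CPM in the poor libraries (0.37, SE 0.18).

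Among the 15 maturation genes (median 0.96), Epor, the erythropoietin receptor, had 6.24 to 18.1 CPM in the rich libraries, against 2.23 to 6.02 CPM in the poor libraries, with no overlap (log2 fold change 1.34, SE 0.24). Prdx2, a peroxidase abundant in red cells, had 427 to 602 CPM in the rich libraries, against 399 to 491 CPM in the poor libraries (0.16, SE 0.08). Hba-x (chr11:32276600-32278116, mm10), the embryonic α-like globin, had 6.04 to 17.1 CPM in the rich libraries, against 2.72 to 6.82 CPM in the poor libraries (1.26, SE 0.24). Of the globins, the 6 adult murine genes had 0 reads in every library, so red cell content could be read only from other genes.

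Klf1 and 2 of the leading genes of the erythroid lists are shown with the bases around their start, to set the letters of known erythroid motifs beside the differences above. Each window runs from 250 bases before to 50 after the start of the gene (RefSeq, GRCm38.p6), 5′ to 3′ on the strand of the gene. Capitals mark AGATAA, a core that GATA1 binds, and CCNCNCCC, a core that KLF1 binds, on either strand. Over 32851 windows of this length 11.2% held the first and 49.5% the second. Klf1 (chr8:84901732-84902031, plus strand) held neither, Epb42 (chr2:121036828-121037127, minus strand) held the first on the opposite strand, and Hemgn (chr4:46404134-46404433, minus strand) held the first after its start and the second at 4 overlapping places within a run of G. A match is a description of letters and no measured binding. Only these cores were searched for, so a window without a match may hold other letters that the factors bind. TGATAA, which differs from AGATAA in its opening letter, stands unmarked in the windows of Klf1 (opposite strand) and Hemgn. Epb42 encodes protein 4.2 of the red cell membrane.
Klf1: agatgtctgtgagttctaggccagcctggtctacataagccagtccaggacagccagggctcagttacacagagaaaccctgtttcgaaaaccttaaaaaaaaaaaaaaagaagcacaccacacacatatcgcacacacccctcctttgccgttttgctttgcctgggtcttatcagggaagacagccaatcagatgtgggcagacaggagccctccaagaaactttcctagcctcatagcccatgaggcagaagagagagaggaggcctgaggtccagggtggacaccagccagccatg
Epb42: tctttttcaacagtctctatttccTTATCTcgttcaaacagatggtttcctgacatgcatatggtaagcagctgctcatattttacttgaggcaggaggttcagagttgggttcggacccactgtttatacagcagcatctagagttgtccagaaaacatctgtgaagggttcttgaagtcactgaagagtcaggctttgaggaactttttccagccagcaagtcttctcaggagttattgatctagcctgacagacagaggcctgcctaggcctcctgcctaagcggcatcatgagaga
Hemgn: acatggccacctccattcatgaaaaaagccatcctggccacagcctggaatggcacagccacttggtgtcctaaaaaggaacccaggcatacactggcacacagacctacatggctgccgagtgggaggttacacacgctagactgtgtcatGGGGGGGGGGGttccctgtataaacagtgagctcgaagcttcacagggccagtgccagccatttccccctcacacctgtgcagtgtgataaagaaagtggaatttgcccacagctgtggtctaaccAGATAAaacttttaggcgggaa

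Genes of cell division went with the erythroid genes. All 30 genes of the DNA replication and mitosis lists had a log2 fold change above 0, 18 were past 2-fold and 5 did not overlap between the sets. Over all genes the shares were 43.1%, 1.36% and 0.224%. These lists were also chosen with results of these libraries known, so the counts are a description. The 17 mitosis genes had a median log2 fold change of 1.37, with a sum of 161 to 672 CPM in the rich libraries, against 66.5 to 168 CPM in the poor libraries. Top2a, the topoisomerase that untangles chromosomes, had 15.9 to 82.1 CPM in the rich libraries, against 6.01 to 18.1 CPM in the poor libraries (1.51, SE 0.34). Ube2c, which tags mitotic proteins for removal, had 9.78 to 33.2 CPM in the rich libraries, against 3.12 to 8.56 CPM in the poor libraries (1.49, SE 0.25) without overlap.

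The 13 replication genes had a smaller median of 0.88. Rrm2, the small subunit of ribonucleotide reductase, had 11.5 to 68.1 CPM in the rich libraries, against 5.51 to 15.8 CPM in the poor libraries (1.43, SE 0.32). Mcm2, of the replication helicase, had 16.2 to 45.3 CPM in the rich libraries, against 10.1 to 15.4 CPM in the poor libraries (0.97, SE 0.20) without overlap. E2f1 hardly differed (0.07, SE 0.07).

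Markers of other blood and marrow cells moved in part with the sets. The 5 marrow progenitor genes did not as a list, with a median log2 fold change of 0.05 (-0.20 to 0.93, 3 above 0). Their sum had a median of 116 CPM in both sets. All 14 neutrophil lineage genes had a log2 fold change above 0 (median 1.11, 12 past 2-fold), and none of them separated the sets. Over all genes 43.1% were above 0 and 1.36% past 2-fold higher. Their sum was 272 to 1530 CPM in the rich libraries, against 147 to 429 CPM in the poor libraries, and 107 to 1656 CPM in the control libraries. The median was 0.47 without the 2 libraries highest in Alas2. Erythroid and cell division lists fell without them as well. The membrane list had 0.98 (1.40 with them), the transcription list 0.90 (1.33) and the maturation list 0.54 (0.96). Heme synthesis had 0.31 (0.58), iron uptake 0.14 (0.27), DNA replication 0.54 (0.88) and mitosis 0.82 (1.37). S100a8, a calcium-binding protein of neutrophils, had 43.6 to 273 CPM in the rich libraries, against 24.999 to 76.4 CPM in the poor libraries (1.10, SE 0.33, and 0.45 without those 2).

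Megakaryocyte and platelet genes had a median of 0.43 over 7 genes, and of 0.22 without the 2 libraries highest in Alas2. Their sum was 28.4 to 104 CPM in the rich libraries, against 24.1 to 41.3 CPM in the poor libraries. B lineage genes had a median of 0.47 over 5 genes, and of -0.07 without the 2 libraries highest in Alas2. For Cd79b, a chain of the B cell receptor, the values were 0.987 to 6.31 CPM in the rich libraries, against 1.02 to 2.83 CPM in the poor libraries. The 10 bone and cartilage genes had a median of 0.45 (0.15 without the 2), and the sum of the list was 33.9 to 133 CPM in the rich libraries, against 32.2 to 52.9 CPM in the poor libraries. The differences of the B lineage and bone lists thus rested largely on the 2 libraries highest in Alas2, and that of the platelet list in part. The part of these cell types in the result was not tested. No defining gene of these lists was at 0 in all 48 libraries.

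Genes of the ganglion itself hardly differed. All 11 sensory neuron genes had log2 fold changes between -0.13 and -0.04. The 13 nociceptor genes had -0.11 to 0.19, and Scn10a, the sodium channel of pain-sensing neurons, had 771 to 1195 CPM in the rich libraries, against 748 to 1125 CPM in the poor libraries (0.03, SE 0.13). Myelinating Schwann cell genes had a median of 0.04, satellite glia genes of -0.13 and endothelial genes of -0.02. In whole tissue, fewer cells of a type and less RNA per cell cannot be told apart, and this holds for all values above.

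Targets of hypoxia-inducible factor had a median of 0.00 over 15 genes, from -0.16 to 0.18. The 12 nerve injury genes had a median of -0.30 and reached down to -1.38, with a list sum of 358 to 594 CPM in the rich libraries, against 371 to 916 CPM in the poor libraries. No gene of this list separated the sets.

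**Figure D2:**
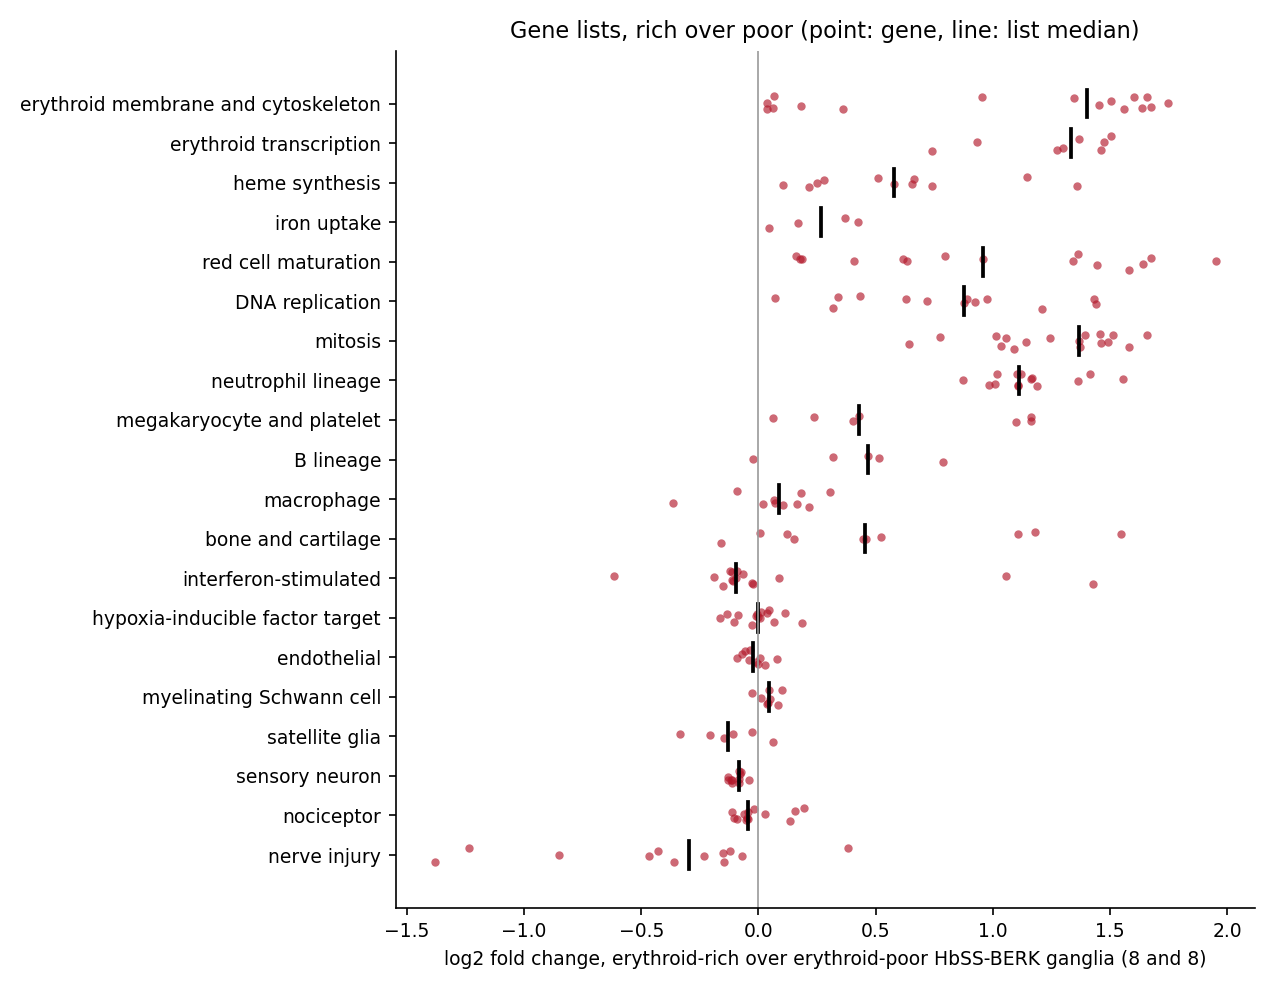
Log2 fold change of each gene of 20 lists, erythroid-rich over erythroid-poor HbSS-BERK ganglia (8 and 8 libraries), with a bar at the median of each list. Erythroid, cell division and neutrophil lists lie to the right of 0, with medians up to 1.40, and neuron, glia and endothelial lists lie near 0.

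Of the 15 interferon-stimulated genes, 2 stood apart from the rest. Isg15 (chr4:156199424-156200818, mm10), a ubiquitin-like protein, had 20.8, 21.1, 19.9, 20.7, 26.9, 31.9, 26.2 and 26.1 CPM in the rich libraries, in the order of falling Alas2, against 11.1, 12.1, 8.26, 9.52, 16.1, 10.48, 14.6 and 9.60 CPM in the poor libraries. The sets did not overlap, and the 2 libraries highest in Alas2 were not the highest of the rich set. The log2 fold change was 1.06 (SE 0.14), and 1.12 without those 2 libraries. The difference also held within replicate numbers 1 to 3 (1.17) and 4 to 6 (0.94) without overlap. The 7 libraries between the sets had 6.55 to 22.9 CPM and the control libraries 3.23 to 11.4 CPM.

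Rsad2 (chr12:26442743-26456452, mm10), the antiviral enzyme viperin, had 38.3 to 152 CPM in the rich libraries, against 22.1 to 43.3 CPM in the poor libraries (1.43, SE 0.25, and 1.06 without the 2 libraries highest in Alas2). It was highest in the same 2 libraries as Slc4a1. The other 13 interferon genes had log2 fold changes of -0.62 to 0.09. Isg20, an RNA-degrading enzyme outside the list, had 22.2 to 52.2 CPM in the rich libraries, against 8.95 to 18.8 CPM in the poor libraries (1.27, SE 0.20).

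The HbAA-BERK ganglia, which the ranking did not use, allow a test. Each gene was fitted with log2 CPM of Alas2 as a covariate and the labelled group as a term in 25 libraries, with edgeR's quasi-likelihood test, and the slope is the change in log2 level per unit of log2 Alas2. Of 15606 genes, 406 rose with Alas2 (2.6%; Benjamini-Hochberg adjusted p under 0.05) and 2 fell (0.0128%), Asb13 (-0.12) and Map2 (-0.16). Klf1 rose with a slope of 1.07 (SE 0.10, adjusted p = 4.5e-07), Slc4a1 with 0.96 (SE 0.10, adjusted p = 5.02e-06) and Mki67 with 0.73 (SE 0.14, adjusted p = 0.00311). The smallest adjusted p values were those of Trim10 (1.10), Cldn13 (1.14), Kel (1.09), Bpgm (0.38) and Tspan33 (0.67). Kel encodes a red cell blood group protein, and Bpgm the enzyme that sets 2,3-bisphosphoglycerate in red cells.

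The genes that separated the sickle sets mostly rose with Alas2 in the controls as well. Of the 34 genes 33 were tested there and 26 rose. Of the 23 genes past 2-fold 22 were tested and 21 rose, among them Car1 (1.14, adjusted p = 1.07e-05), Hemgn (0.98, adjusted p = 0.000257), Apol11b (1.06, adjusted p = 0.00977) and Isg20 (0.71, adjusted p = 5.84e-06). The exception was Isg15, with a slope of 0.16 (SE 0.12, adjusted p = 0.499), and Lincred1 had too few reads. Leaving out each control library in turn kept the adjusted p of Isg15 between 0.265 and 0.949. Rsad2 rose (0.36, SE 0.07, adjusted p = 0.00363), the only 1 of the 15 interferon genes to do so.

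By list, 29 of 54 erythroid genes and 24 of 30 cell cycle genes rose with Alas2 in the controls and none fell, while 2.6% of all genes rose. The transcription list rose in full (8 of 8), membrane genes in 9 of 16, maturation genes in 9 of 14, heme synthesis in 3 of 11 and iron uptake in 0 of 4, with a slope of 0.01 (adjusted p = 0.938) for Tfrc. In the neutrophil list 7 of 14 rose, among them Mpo, the peroxidase of their granules (0.97, adjusted p = 0.00226), while S100a8 had 0.67 (adjusted p = 0.0547). Platelet genes rose in 6 of 7, B lineage genes in 4 of 8 and bone and cartilage genes in 4 of 12. No sensory neuron, nociceptor, nerve injury or hypoxia-inducible factor gene rose or fell (0 of 11, 13, 12 and 15).

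The count of 406 depended on the libraries and on the model. It was 36 when the replicate number entered as a block (numbered libraries alone), 210 without the 4 libraries above 20 CPM of the liver gene Alb, 203 without replicate 3 of the 2-month H/R controls, 138 without replicate 7 of the same group and 243 without replicate 3 of the 5-month normoxia controls. The count of genes that fell ran from 0 to 68 as each library was left out. With the block Klf1 (adjusted p = 0.00404) and Slc4a1 (adjusted p = 0.000862) still passed the test. The slopes of Mki67 (0.70, adjusted p = 0.103) and Mpo (0.98, adjusted p = 0.144) were of like size with the block but did not pass. The 4 libraries above 20 CPM of Alb held reads of a liver gene, whose part in the slopes was not tested.

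**Figure D3:**
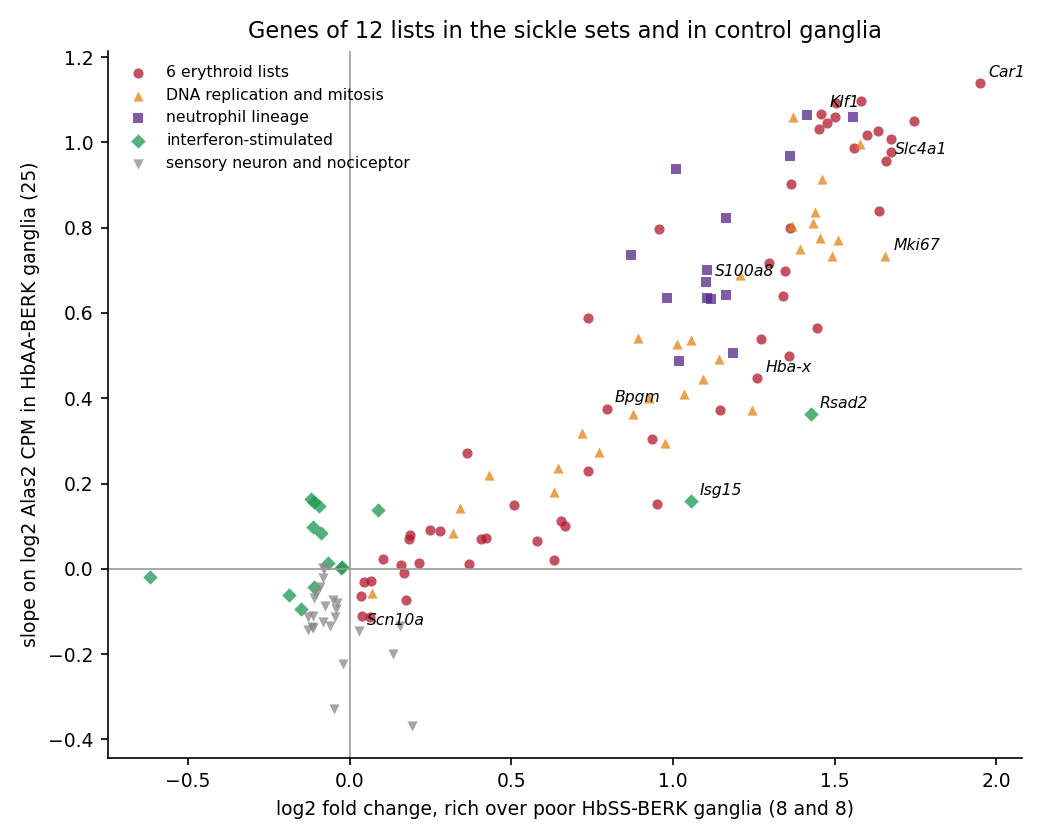
Each point is a gene of 12 lists, with its log2 fold change of rich over poor HbSS-BERK ganglia (8 and 8 libraries) on the x axis and its slope on log2 Alas2 CPM in 25 HbAA-BERK ganglia on the y axis. Car1 (1.95 and 1.14) and Klf1 (1.46 and 1.07) lie high on both, Isg15 (1.06 and 0.16) lies low on the y axis, and neuron genes lie near 0 on the x axis.

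Across the 25 control libraries the correlation with log2 Alas2 after the group means were taken off was tested for 8 genes by permutation within groups (100000 permutations, two-sided, adjusted over the 8). Pearson's r was 0.903 for Klf1 (Spearman's rho 0.865, adjusted permutation p = 8e-05 for each) and 0.640 for S100a8 (rho 0.642, adjusted permutation p = 0.00295 and 0.00337). Before adjustment the p of Klf1 was 1e-05, the smallest that so many permutations can give. For S100a8 r was 0.449 in the 12 libraries numbered 1 to 3 and 0.800 in the 9 numbered from 4 up. Alb had an r of 0.0166 (rho -0.0948, adjusted permutation p = 0.942 and 0.658). Scn10a had -0.482 (rho -0.423, adjusted permutation p = 0.0215 and 0.0493), which rested on 2 libraries, since r was -0.268 (adjusted p = 0.269) without those farthest from the median of Alas2.

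**Figure D4:**
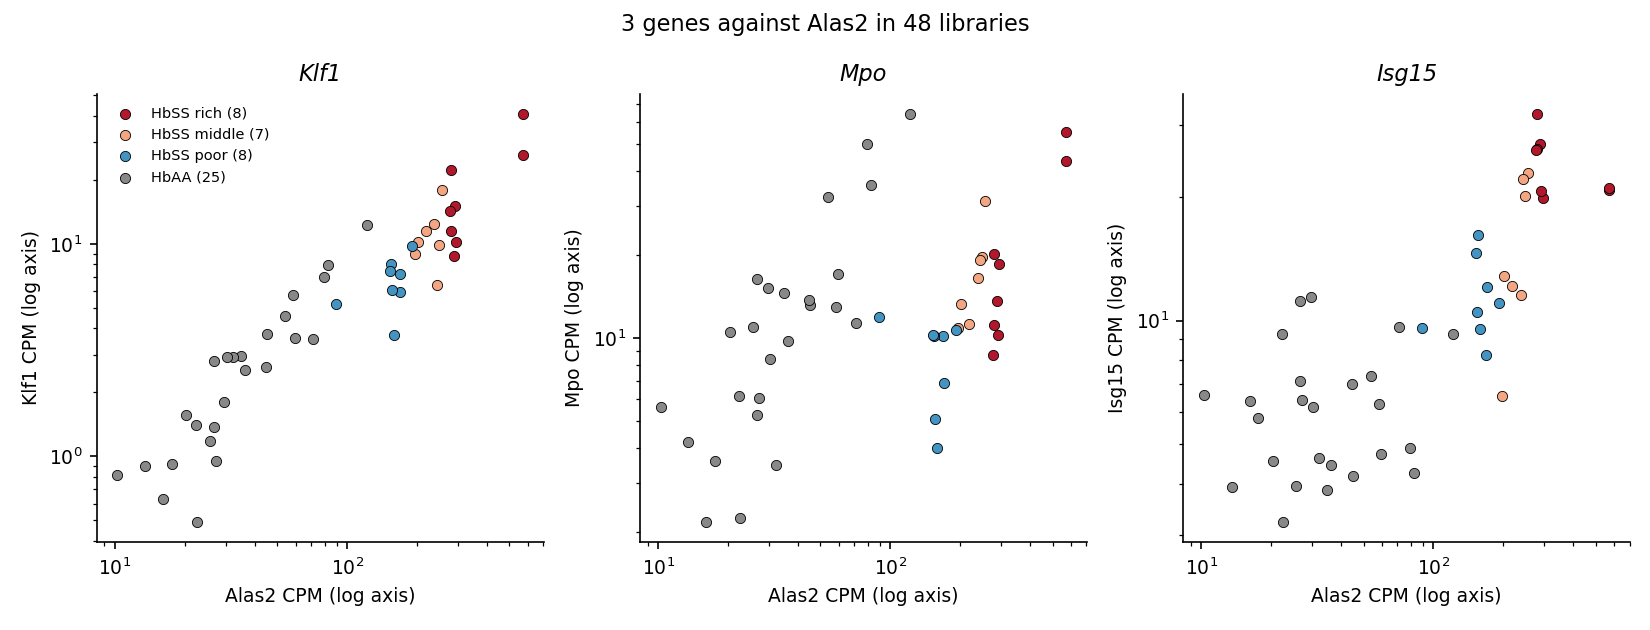
Levels of Klf1, Mpo and Isg15 against Alas2 in CPM (log axes) in 48 libraries, colored by set. Klf1 reaches 12.2 CPM in controls and at most 9.73 CPM in the poor set, though most poor libraries hold more Alas2 than any control. Mpo reaches 64.4 CPM in controls and 55.2 CPM in the rich set. Isg15 is at most 11.4 CPM in controls while all rich libraries have at least 19.9 CPM.

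Ratios to Klf1 within a library set erythroid genes beside each other, and 4 were compared between genotypes over 23 HbSS-BERK and 25 HbAA-BERK libraries by permutation within age and treatment (100000 permutations, two-sided, adjusted over the 4). The ratio of Slc4a1 to Klf1 was 16.7 in HbSS-BERK and 11.6 in HbAA-BERK libraries, a log2 difference of 0.53 (adjusted permutation p = 4e-05). It was 0.58 within replicate numbers 1 to 3 and 0.59 within numbers from 4 up. Mki67 to Klf1 differed by -0.21 (6.37 in HbSS-BERK and 7.35 in HbAA-BERK libraries, adjusted permutation p = 0.0848), less than its spread. The ratio of Bpgm to Klf1 was 11.1 in HbSS-BERK and 18.1 in HbAA-BERK libraries (log2 difference -0.71, adjusted permutation p = 0.000907), but -0.46 (adjusted permutation p = 0.152) within numbers from 4 up. Tfrc to Klf1 was 15.3 in HbSS-BERK and 55.5 in HbAA-BERK libraries (-1.86, adjusted permutation p = 4e-05), and Tfrc is also used by cells that hold no Klf1. In the controls Bpgm (slope 0.38) and Tfrc rose less with Alas2 than Klf1 did. Both ratios can therefore fall where a library holds more erythroid RNA, whose part in these differences was not tested.

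Within the sickle libraries the sets had like ratios of Slc4a1 to Klf1, with a median of 19.2 (11.2 to 28.0) in the rich set and 17.6 (11.8 to 19.1) in the poor set. Mki67 to Klf1 had medians of 6.77 in the rich and 6.35 in the poor set. The other ratios differed between the sets. Tfrc to Klf1 had medians of 11.8 in the rich and 24.8 in the poor set, against 54.9 in the control libraries. For Bpgm to Klf1 they were 9.88, 12.1 and 15.8 in the same order. S100a8 to Klf1 had medians of 5.52 in the rich and 8.31 in the poor set, against 34.9 in the control libraries. Mpo to Klf1 had 1.16, 1.21 and 4.64 in the same sets. The neutrophil genes were thus low against Klf1 in both sickle sets beside the controls, and this difference between genotypes was not tested. The ratios also read the level of Klf1, whose group medians were 8.40 to 14.6 CPM in sickle and 0.882 to 3.10 CPM in control groups. Group medians of S100a8 were 70.0 to 107 CPM in sickle and 63.1 to 111 CPM in control groups. For Mpo they were 10.8 to 16.3 and 5.45 to 14.6 CPM.

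The labels that the study varied were tested among the sickle libraries. H/R against normoxia at 2 months gave no call in 15202 genes with edgeR (309 at an unadjusted p under 0.05, 0 by DESeq2). At 5 months 1 gene of 15284 rose (0.00654%), Fmo2, a flavin-containing monooxygenase (log2 fold change 1.01, SE 0.12, edgeR adjusted p = 0.0213), with 479 at an unadjusted p under 0.05 and 6 calls by DESeq2. With the replicate number as a block no gene was called there, nor without any 1 of 7 of the 11 libraries. Age gave no call in normoxia (15274 genes, 619 unadjusted, 9 by DESeq2) or after H/R (15206 genes, 853 unadjusted, 33 by DESeq2).

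No erythroid or cell cycle gene was called in any of these 4 comparisons with edgeR, though most of their log2 fold changes were above 0. For H/R at 5 months 52 of 55 erythroid genes were above 0 (median 0.37), as were 7972 of all 15284 genes. For H/R at 2 months 49 of 55 were (median 0.26), for age in normoxia 47 of 56 (median 0.13) and for age after H/R 51 of 56 (median 0.23). Over all genes these were 7552 of 15202, 7554 of 15274 and 7501 of 15206 in the same order. Genes of these lists vary together between libraries, so their counts are no independent signs and were not tested. Slc4a1 had 0.70 (SE 0.48) for H/R at 5 months and 0.49 (SE 0.51) at 2 months, with edgeR adjusted p of 1.00 in both. At 2 months the value turned to -0.36 without replicate 2 after H/R, the library of that group in the rich set with 734 CPM of Slc4a1. Without the same library Klf1 and Mki67 turned to -0.17 and -0.16 (highest 0.43 and 0.86 with another left out). At 5 months leaving out each library gave 0.28 to 1.17 for Slc4a1, 0.28 to 1.13 for Klf1 and 0.37 to 1.28 for Mki67. All were lowest without replicate 1 after H/R and highest without replicate 3 in normoxia. The spread within a labelled group was therefore wider than the differences between them: at 2 months after H/R Slc4a1 ran from 99.99 to 734 CPM, and at 2 months in normoxia from 61.2 to 269 CPM.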

How the data were processed

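Dorsal root ganglion RNA (poly-A selected, paired reads) of 48 of the 49 samples in the labels was analysed, and 1 column of the count table whose heading matches no group was not used. The raw read counts deposited by the authors were made with featureCounts after Trimmomatic and an alignment to mm10 (TopHat 2.0.13, Bowtie 2.2.4.0). The FPKM deposited by the authors came from cuffquant and cuffnorm. The strand setting of the counting and its treatment of reads with several matches are not given in the sources used here, so overlapping genes and close copies are uncertain. Dates stand in place of gene names in 27 rows (0.237% to 0.262% of a library), which were left out, and 24393 named genes remained. Libraries held 12.1 to 24.8 M reads (M, 1000000). No library pair was identical. In HbAA-BERK mice in normoxia 4 libraries have no replicate number of their own.

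The sets, the gene lists (312 entries in 32 lists, of which 1 entry was not matched and 2 were matched by an older symbol) and the tests were chosen with earlier results of these data known. Promoter windows came from RefSeq (GRCm38.p6). The table used has no window for Slc4a1 or Car1. A few genes that the naming rule picks are not reported here.

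Fold changes and slopes came from edgeR 4.0.16 (TMM factors, filterByExpr, quasi-likelihood F-test, Benjamini-Hochberg adjusted p under 0.05) with limma 3.58.1 and DESeq2 1.42.0 in R 4.3.3. Permutation tests and Fisher's exact test used Python 3.11.15, numpy 2.4.6, pandas 2.3.3 and scipy 1.17.1, with 0.1 CPM added before log2, and figures matplotlib 3.10.9. The p-values measure the spread between mice. The fit of H/R at 5 months and that of Alas2 as a covariate in the controls were tested on simulated data. The other steps were not. The genes named are the 3 markers, up to 4 genes of the highest mean in a list, list genes that did not overlap, the 12 largest folds among genes of at least 1 CPM that did not overlap, and up to 5 called genes per direction. Scn10a, Cd79b, Mpo, Bpgm and Alb belong to the correlation, slope or ratio tests. Isg20 was named after its values were seen.

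Alternatives were RLE factors, no filter, DESeq2, FPKM, sets of 6 or 11, ranking by deviation from the labelled group, group or replicate terms and leaving out each library. Replicate numbers are shared between groups. The correlation of deviations between same-numbered libraries was over 0.1 in all 5 pairs only for H/R at 5 months (0.159 to 0.447). Those numbers may mark pairs, which rests on the data and not on the labels. The main fits were unpaired, and the replicate number entered as a block only among the alternatives. The lowest pair was -0.202 for H/R at 2 months, 0.0954 for age in normoxia and -0.162 for age after H/R.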

Additional observations from a re-analysis of the deposited data

Results flagged for a closer look

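In groups of 4 to 10 mice, 8 genes were checked in 8 labelled groups for a library far from the rest (64 checks), of which 9 stood apart by Dixon's test, and chance flags about 1 in 20. All 9 were libraries of the erythroid-rich set. That set was chosen for high Alas2, which most of these genes follow, so this is partly fixed by the ranking. The genes also vary together between libraries, so the 64 checks are not independent and their count is a description. Replicate 2 of the 2-month sickle H/R group had 734 CPM of Slc4a1 (next 150), 26.3 CPM of Klf1 (next 9.91), 271 CPM of Mki67 (next 66.7) and 43.3 CPM of Mpo (next 19.6). Replicate 1 of the 5-month sickle H/R group had 40.9 CPM of Klf1 (next 17.9), 283 CPM of Mki67 (next 133), 237 CPM of S100a8 (next 108) and 6.31 CPM of Cd79b (next 2.11). These are the 2 libraries highest in Alas2. Replicate 3 at 5 months in normoxia had 31.9 CPM of Isg15 (next 12.9), and this library was also high in Slc4a1 (383 CPM).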

How the results depend on the processing

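The count of 23 genes higher without overlap and past 2-fold was 10 on log2(FPKM + 1), 86 with 6 against 6 libraries, 2 with 11 against 11, 8 when libraries were ranked by their deviation from the labelled group (7 libraries of each set shared), 12 without the 2 libraries highest in Alas2 and 17 to 64 with each library left out. With the replicate number as a block it was 28. The count of genes that rose with Alas2 in HbAA-BERK ganglia (406) was 36 with the replicate block, 210 without libraries above 20 CPM of Alb and 138 to 544 with each library left out. The count that fell (2) was 4 without a filter, 47 by DESeq2, 4 with replicate numbers 1 to 3 as a term, 0 with the block, 14 with Slc4a1 as the covariate, 9 by limma on FPKM with 1 or 0.1 added, 0 without libraries above 20 CPM of Alb, 22 with numbers 1 to 4 as a term at 2 months after H/R, and 0 to 68 with each library left out.

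The call for H/R at 5 months (1 higher) was 4 higher and 2 lower by DESeq2, 0 with all 4 groups in 1 fit, 0 with the replicate block and 0 to 1 with each library left out. For age DESeq2 called 4 higher and 5 lower in normoxia, and 9 higher and 24 lower after H/R, where 1 was lower with replicate numbers 1 to 3 as a term and 2 with the replicate block. The r of Scn10a was -0.268 without the 2 farthest libraries. The Mki67 to Klf1 difference was -0.25 (adjusted permutation p = 0.0456) with 0.5 reads added in place of 0.1 CPM, and the Bpgm to Klf1 difference -0.46 within replicate numbers from 4 up. Among slopes, those of Mki67, Mpo and Cd79b missed the threshold under the block (adjusted p of 0.103, 0.144 and 0.103, with slopes of 0.70, 0.98 and 0.90, against 0.73, 0.97 and 0.77 without it), and Cd79b missed it without Alb-rich libraries (0.0860), and S100a8 passed by DESeq2, by limma and with Slc4a1. The causes were not tested. Most of the 406 calls were lost with the block, and genes other than those given were not followed one by one. The replicate number marks pairs in no label, and of the alternatives those without the 2 libraries highest in Alas2, without Alb-rich libraries (in the sets, 10 CPM) and with numbers 1 to 4 as a term were chosen after seeing the data. Without the 2 libraries highest in Alas2, the rich over poor log2 fold changes of Mpo, S100a8 and Cd79b were 0.64, 0.45 and -0.07, against 1.36, 1.10 and 0.51 with them. With 12.1 to 24.8 M reads a library, genes under about 1 CPM are poorly measured.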

Other observations

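The heme and iron recycling genes, which work mainly in macrophages, were described by no comparison above. Of 11 genes 9 had enough reads. All 9 had a log2 fold change above 0 in the erythroid-rich over the erythroid-poor ganglia, with a median of 0.19. The highest was 0.84 and none was past 2-fold. Over all genes 43.1% were above 0 and 1.36% past 2-fold higher. The sum of the list was not higher in the rich set, with a median of 2578 CPM, against 2710 CPM in the poor set and 2811 CPM in the control libraries. Blvrb, a biliverdin reductase also abundant in red cells, had 54.9 to 90.5 CPM in the rich libraries, against 41.6 to 54.7 CPM in the poor libraries, without overlap, and a log2 fold change of 0.53 (SE 0.09). Its slope on Alas2 in HbAA-BERK ganglia was 0.15 (SE 0.07, edgeR adjusted p = 0.284). The 10 macrophage genes had a median of 0.09 and a sum of 83.3 to 264 CPM in the rich libraries, against 85.5 to 212 CPM in the poor libraries.

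Acp5, the acid phosphatase of bone-resorbing cells, had 4.94 to 35.9 CPM in the rich libraries, against 4.37 to 8.95 CPM in the poor libraries (log2 fold change 1.18, SE 0.33), and rose with Alas2 in the controls (0.75, SE 0.17, edgeR adjusted p = 0.0139). Prg2, a granule protein of eosinophils, had 4.53 to 25.2 CPM in the rich libraries, against 1.69 to 7.94 CPM in the poor libraries, and rose there too (0.99, SE 0.18, edgeR adjusted p = 0.00188). Its list, of mast cell, basophil and eosinophil genes, hardly differed, with a median log2 fold change of 0.20 over 7 genes (-0.13 to 1.04). Of these 5 were above 0 and 1 was past 2-fold, against 43.1% and 1.36% of all genes. In the controls 4 of 8 genes of the list rose, against 2.6% of all genes. Skeletal muscle genes varied widely in both sets, with sums of 458 to 1764 CPM in the rich libraries, against 262 to 3347 CPM in the poor libraries.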
